A study of Mus musculus with 12 samples.

Results

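The nuclear genes for the subunits of oxidative phosphorylation were followed in the liver and subcutaneous fat of male mice. Members were the protein-coding genes of the count table named as subunits of complex I (Nduf genes of the a, b, c, s and v series), complex II (Sdha to Sdhd), complex III (Uqcr genes), complex IV (Cox4 to Cox8) and complex V (Atp5 genes), with the muscle and brown fat isoforms Cox7a1 and Cox8b left out. The rule gave 82 of 54532 genes, of which 36 belonged to complex I, 4 to complex II, 8 to complex III, 16 to complex IV and 18 to complex V. Null mice received AAV8-TBGp, an adeno-associated virus that carries the promoter without HKDC1, by tail vein at 10 weeks of age, and hHKDC1 OE mice received the same vector carrying full-length human HKDC1, a hexokinase family enzyme. The thyroxin-binding globulin promoter (TBGp) restricts the transgene to hepatocytes, so that in fat no cell was meant to carry it. Both groups were kept on a low-fat diet for 16 weeks after injection, and 12 libraries were made, 3 from each tissue under each vector. The strain was not given in the sources used here.

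Oxidative phosphorylation is the passage of electrons from NADH and succinate to oxygen along complexes I to IV of the inner mitochondrial membrane, coupled to ATP synthesis by complex V. Each complex except complex II mixes subunits encoded in the nucleus with a few encoded in mitochondrial DNA. Core subunits carry the redox centres or the catalytic sites, and the remaining, accessory subunits stabilise the complex or take part in its assembly. Hepatocytes are rich in mitochondria, whereas white adipocytes hold few, and several complex IV subunits exist as tissue isoforms made from separate genes.

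Some properties of the libraries come before the results. The labels of replicates 2 and 3 of hHKDC1 OE liver and of hHKDC1 OE fat describe them as HKDC1 knockouts. Their titles and treatment field nevertheless place them with the overexpressing group. So the members' medians in each treatment comparison, and the fold changes of members named for it, are also given without these 4 libraries. Counts at an unadjusted p, and single genes of other lists, are not given without them. Human HKDC1 was not among the mouse genes counted, so the transgene could not be used to check a label. Total counts were 15496019 to 19954971 per library, and the members took 1.11% to 1.47% of them. The hepatocyte markers (10 of 10 detected) summed to 90240 to 126100 CPM (counts scaled to the library total) in the liver libraries, and the adipocyte markers (9 of 9 detected) to 22740 to 32940 CPM in the fat libraries. The 12 skeletal muscle markers, of which 11 were detected, summed to 22190, 26400 and 671 CPM in null fat replicates 1 to 3 and to 19910, 1338 and 3365 CPM in hHKDC1 OE fat. The 12 B cell markers summed to under 6 CPM in each null fat library and to 1135, 66.9 and 851 CPM in hHKDC1 OE fat. Several other marker lists differed as well, whereas the adipocyte and endothelial sums of null and hHKDC1 OE fat overlapped. The 8 T cell markers summed to 5.81, 5.30 and 16.3 CPM in null fat and to 451, 34.9 and 477 CPM in hHKDC1 OE fat, and the 8 macrophage markers to 579, 292 and 693 CPM against 1299, 991 and 1562 CPM. The 8 brown and beige adipocyte markers summed to 157, 236 and 132 CPM against 444, 178 and 290 CPM, with overlap. Among them Ucp1, the uncoupling protein of brown fat mitochondria, measured 0.12, 1.24 and 0.05 CPM in null fat and 72.3, 4.44 and 20.7 CPM in hHKDC1 OE fat. Not all 8 rose: 5 had a log2 fold change above 0 and 3 below, with a median of 0.37 and Zic1 lowest at -2.57. The hepatocyte markers summed to 2575, 2653 and 8589 CPM in null fat and to 2531, 910 and 1469 CPM in hHKDC1 OE fat, with 10 of 10 fold changes below 0. The 6 epithelial markers summed to 154, 19.1 and 81.7 CPM in null fat and to 10.2, 13.03 and 11.9 CPM in hHKDC1 OE fat, without overlap. In bulk tissue, fewer cells of a type and less RNA per cell cannot be told apart.

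Levels were compared between genes as the deposited FPKM (fragments scaled for transcript length and sequencing depth), a scale that corrects for length. In null liver 63 of the 82 members were among the 1000 most abundant of 22046 protein-coding genes, and in null fat 59 were. The median member reached 94.5 FPKM in null liver and 46.7 FPKM in null fat. In null liver the highest member was Cox6a1, a small subunit of cytochrome c oxidase, at 774 ± 20.6 FPKM (SD, n = 3), and in null fat it was Cox8a, another small subunit of the same complex, at 527 ± 66.3 FPKM. At the other end, Cox7b2 and Cox8c, which are testis isoforms, and a second gene named Atp5o (ENSMUSG00000116933) had 0 counts in all 12 libraries. All exon bases of that second Atp5o are shared with another gene, Donson, so its zero says little about the transcript.

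Within complex I the order ran in null liver from Ndufa4 (320 ± 7.0 FPKM), a subunit now assigned to complex IV by biochemical work, down to Ndufb2 (2.49 ± 0.23 FPKM), a membrane-arm accessory subunit whose annotated length of 5628 bases lowers its FPKM. The same pair bounded complex I in null fat, at 109 ± 14.5 and 1.17 ± 0.12 FPKM. Of the 35 pairs of neighbours in that order, 30 in null liver and 33 in null fat had overlapping replicate ranges, so most of complex I formed a continuum rather than distinct steps. The 4 genes of complex II, which has no mitochondrially encoded subunit, spanned 77.0 FPKM for Sdhc to 199 FPKM for Sdhd in null liver. In null fat they spanned 40.5 FPKM for Sdhc to 99.5 FPKM for Sdha, the flavoprotein that oxidises succinate, and no pair of neighbours overlapped. The 8 genes of complex III stayed within 2.61-fold of each other in null liver, from Uqcr10 (299 FPKM) to Uqcrc2 (115 FPKM), and within 2.37-fold in null fat. Complex V ran from Atp5a1 (475 ± 27.7 FPKM), the alpha subunit of the catalytic head, to Atp5s (3.85 ± 1.48 FPKM), a coupling factor, in null liver. In null fat its highest member was the beta subunit gene Atp5b, at 314 ± 32.5 FPKM. The rank within the complex was the same by TPM (the same length correction, with each library scaled to 1 total) in 80 of 82 members in null liver and in 80 in null fat, and moved by at most 1 place in the others.

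**Figure D1:**
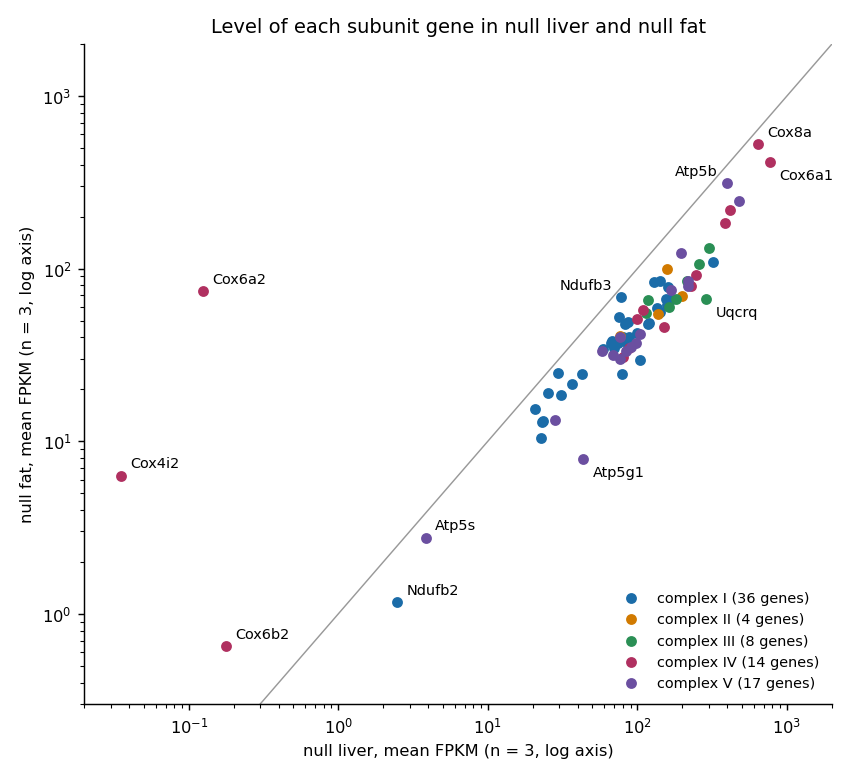
Mean deposited FPKM of each detected member in null liver (horizontal, log axis) against null fat (vertical, log axis), 3 libraries each, coloured by complex, with a line where both tissues are equal. Of the 79 members shown, 76 lie below the line and 3, Cox6a2, Cox4i2 and Cox6b2, lie above it.

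The 2 null groups were compared to ask how the tissues differ without the transgene. Across the 79 detected members the order of the levels in the 2 tissues was alike (Spearman's rho 0.90 across genes, a description of genes that share the same 6 libraries). Relative to the other genes, the members were lower in fat. Tested with edgeR (quasi-likelihood, p adjusted by Benjamini and Hochberg's method over 15259 genes), 68 of 79 members (86.1%) were lower in fat, where 30.5% of all genes were, and 2 members (2.53%) were higher, where 33.8% of all genes were. The median log2 fold change of the members was -1.13 against 0.09 for all genes. In 3 classes of annotated gene length, cut at 1147 and 2101 bases, the members had medians of -1.19, -1.23 and -1.02 from short to long. All tested protein-coding genes in these classes had medians of -0.68, -0.45 and 0.19. Of the cytosolic ribosomal protein genes 81.9% were lower in fat, a share near that of the members. The part of length in the tissue difference was not tested. When libraries were scaled by total counts alone the median of all genes rose to 0.98 and that of the members to -0.24. On that scale 27 members were lower (34.2%, against 15.0% of all genes) and 7 higher (8.86%, against 59.1% of all genes). The count of members called lower was thus not stable. The distance from the median gene was -1.21 on both scales, but a change of scaling moves all genes alike and could not alter it. All fold changes between tissues below are relative to the first scale.

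The difference was not even across members. All 4 complex II genes, all 8 complex III genes, 32 of 36 complex I genes, 14 of 17 tested complex V genes and 10 of 14 tested complex IV genes were lower in fat, with medians of -1.18, -1.36, -1.04, -1.22 and -0.99 on the log2 scale. Atp5g1, 1 of 3 genes for subunit c of the membrane rotor, measured 48.8, 41.0 and 40.8 FPKM in null liver and 10, 8.71 and 4.85 FPKM in null fat, and every fat library lay below every liver library. The log2 difference, fat minus liver, came to -2.52 with a standard error (SE) of 0.28 and an adjusted p of 0.000115 in the edgeR fit. Uqcrq, a small complex III subunit, measured 272, 282 and 311 FPKM in null liver against 55.1, 74.9 and 70.5 FPKM in null fat, again without overlap. The log2 difference was -2.16 (SE 0.19, adjusted p = 3.54e-05 in edgeR).

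The largest falls of the remaining complexes were those of Ndufa6 (log2 fold change -1.86, SE 0.17), an accessory subunit of complex I, of Cox7b (-1.77, SE 0.18) in complex IV and of Sdhd (-1.58, SE 0.14), a membrane anchor of complex II, each with an adjusted p under 0.0001 by edgeR. Among the core subunits, 16 of 18 were lower in fat, and Ndufs1 and Atp5b did not pass. Ndufs1, the largest iron-sulfur subunit of complex I, had a log2 fold change of -0.48 (SE 0.20, edgeR adjusted p = 0.0686), and Atp5b one of -0.38 (SE 0.20, adjusted p = 0.131). Ndufb3 measured 56.0, 72.8 and 103.9 FPKM in null liver and 62.7, 74.5 and 68.0 FPKM in null fat. Its ranges overlapped, with a log2 fold change of -0.24 (SE 0.23, edgeR adjusted p = 0.387). The other members that did not pass were Ndufa12, Ndufv3, Cox6b2, Cox8a, Atp5k and Atp5s.

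Subunit c is a case where 3 genes encode the same mature protein with different import sequences. By FPKM, Atp5g3 made up 64.1% ± 3.45 (SD, n = 3) of their sum in null liver and 64.0% ± 4.08 in null fat. The share of Atp5g1 was 15.3%, 12.7% and 11.1% in the null liver libraries and 8.17%, 5.91% and 3.77% in the null fat libraries, with no overlap. The share of Atp5g2 was 24.0%, 23.2% and 21.3% in null liver and 32.2%, 29.6% and 28.4% in null fat, also without overlap but in the opposite direction. An exact permutation test of 3 libraries against 3 cannot give a two-sided p below 0.1, so these shares carry no call. The transcripts of the 3 genes have at most 21 identical bases in a row, far less than a read, so the counting could tell them apart.

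Because members were lower together in fat, their promoter windows were searched for 3 motifs: GCGCANGCG, the core of the site of NRF1, a regulator of nuclear genes for mitochondrial proteins, CCGGAAG, the core of sites of ETS factors such as GABP, and the CCAAT box. Windows ran from 250 bases before to 50 bases after the RefSeq start (build GRCm38.p6, both strands searched), and 66 of 82 members had one of their own. The second Atp5o gene has only the window of the first and was not counted. The NRF1 core was in 19 of 66 (28.8%) against 6.5% of 27025 windows of all genes, the ETS core in 15 (22.7%) against 9.1%, and CCAAT in 29 (43.9%) against 37.9%. A match is a description of letters and not of binding. By complex, the NRF1 core was in 8 of 32 windows of complex I, 2 of 3 of complex II, 2 of 5 of complex III, 1 of 11 of complex IV and 6 of 15 of complex V. The 250 bases before the start are given for the 3 subunit c genes, which differ in their tissue balance, and for Ndufa8 and Uqcrh, the members with the smallest p for a treatment effect that differed between tissues. Capitals mark matches to the 3 motifs on either strand, and each sequence reads 5′ to 3′ on the minus strand, on which all 5 genes lie.
Atp5g1 at chr11:96075632-96075881: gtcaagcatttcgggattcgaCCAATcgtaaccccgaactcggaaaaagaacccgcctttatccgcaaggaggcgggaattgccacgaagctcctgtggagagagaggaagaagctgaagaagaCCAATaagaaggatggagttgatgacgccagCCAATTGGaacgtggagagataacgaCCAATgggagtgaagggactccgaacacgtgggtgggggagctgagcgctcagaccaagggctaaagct
Atp5g2 at chr15:102671048-102671297: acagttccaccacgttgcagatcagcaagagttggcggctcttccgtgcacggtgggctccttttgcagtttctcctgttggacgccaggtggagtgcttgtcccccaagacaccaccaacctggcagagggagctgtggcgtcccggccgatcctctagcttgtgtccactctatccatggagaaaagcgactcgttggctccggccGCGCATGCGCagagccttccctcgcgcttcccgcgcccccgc
Atp5g3 at chr2:73911327-73911576: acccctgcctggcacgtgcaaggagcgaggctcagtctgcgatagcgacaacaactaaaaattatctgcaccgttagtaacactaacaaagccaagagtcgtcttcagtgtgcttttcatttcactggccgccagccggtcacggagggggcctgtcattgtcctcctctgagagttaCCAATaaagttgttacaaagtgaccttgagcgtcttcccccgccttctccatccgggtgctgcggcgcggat
Ndufa8 at chr2:36049339-36049588: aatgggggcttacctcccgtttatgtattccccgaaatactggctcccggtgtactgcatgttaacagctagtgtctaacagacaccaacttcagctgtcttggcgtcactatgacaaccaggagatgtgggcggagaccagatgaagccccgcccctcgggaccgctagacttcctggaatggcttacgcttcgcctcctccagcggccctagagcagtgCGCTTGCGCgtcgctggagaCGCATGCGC
Uqcrh at chr4:116075071-116075320: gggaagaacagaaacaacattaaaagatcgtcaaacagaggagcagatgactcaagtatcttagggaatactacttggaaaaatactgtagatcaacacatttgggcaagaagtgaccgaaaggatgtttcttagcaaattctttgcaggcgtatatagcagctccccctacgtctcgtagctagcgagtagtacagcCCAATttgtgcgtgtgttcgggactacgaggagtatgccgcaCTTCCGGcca

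Atp5g1, the subunit c gene with the lowest share in fat, held 5 CCAAT matches and neither of the other motifs. Atp5g2 held 2 overlapping NRF1 matches that begin 42 and 41 bases before the start, 1 on each strand. The RefSeq start of Atp5g2 lies 1305 bases inside the gene as annotated in the count table, so another start may serve part of its transcripts. Atp5g3 held 1 CCAAT match in the bases shown and 1 NRF1 match after its start. Ndufa8 held 2 NRF1 matches, 29 and 9 bases before the start, and Uqcrh an ETS match at 10 and a CCAAT match at 52 bases before it.

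The isoform genes of complex IV made up the exceptions to the lower level in fat. Cox6a2, the heart and skeletal muscle isoform of subunit 6A, had 0, 1 and 2 counts in null liver and 1307, 2014 and 42 counts in null fat. Per total counts this was 1011-fold more in fat (95% exact interval 346 to 4905, counting error only), and edgeR gave an adjusted p of 0.00287. Null fat replicate 3 stood far below the other 2 libraries. Cox6a2 took 19.4% and 22.5% of the FPKM of Cox6a1 and Cox6a2 together in null fat replicates 1 and 2 and 0.58% in replicate 3. Cox4i2, the isoform of subunit 4 known from lung and from the response to low oxygen, had 0, 0 and 1 count in null liver and 130, 98 and 115 counts in null fat. Per total counts the ratio was 309 (95% exact interval 55.2 to 12250, counting error only), and edgeR gave an adjusted p of 6.13e-05. Unlike Cox6a2, Cox4i2 was even among fat libraries, at 7.89, 6.07 and 6.14 CPM in null fat and 9.83, 6.10 and 9.38 CPM in hHKDC1 OE fat.

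The level of Cox6a2 followed the muscle markers from library to library. In null fat it was 79.3, 125 and 2.24 CPM, where those markers summed to 22190, 26400 and 671 CPM. In hHKDC1 OE fat it was 39.8, 3.51 and 18.0 CPM, where they summed to 19910, 1338 and 3365 CPM. Ordered by either measure the 6 libraries stood in the same sequence. The widely expressed isoform Cox6a1 showed no such spread, with null fat at 415.8 ± 50.7 FPKM and hHKDC1 OE fat at 473 FPKM on average. Cox8b, left out of the members, measured 36.7, 89.8 and 17.3 CPM in null fat and 118, 41.6 and 56.4 CPM in hHKDC1 OE fat, and Cox7a1 17.8, 25.3 and 2.72 CPM against 20.5, 5.56 and 12.1 CPM. The part that muscle in the dissected depot played in the values of Cox6a2 was not tested.

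**Figure D2:**
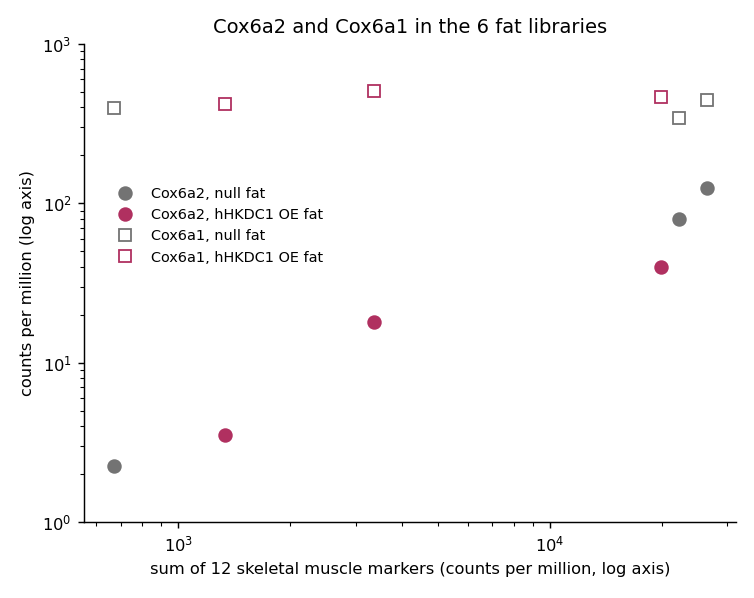
Cox6a2 (filled circles) and Cox6a1 (open squares) in CPM (vertical, log axis) against the summed CPM of 12 skeletal muscle markers (horizontal, log axis) in the 3 null and 3 hHKDC1 OE fat libraries. Cox6a2 runs from 2.24 CPM at a marker sum of 671 CPM to 125 CPM at 26400 CPM, while Cox6a1 shows no such rise.

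The treatment comparison in fat asked whether expression of human HKDC1 in hepatocytes was accompanied by a change of these genes in another tissue. No member passed in fat. In the quasi-likelihood test of edgeR, adjusted over 16380 genes, 0 of 79 tested members and 0.0% of all genes had an adjusted p under 0.05, and DESeq2 called 0 members and 1431 genes. With p unadjusted, 6 members (7.59%) were under 0.05, against 17.7% of all genes, all 6 higher in hHKDC1 OE fat. The groups did not overlap for 6 members (7.59%) against 22.7% of all genes. Both shares lay below those of all genes, and the count of 6 rested on single libraries. It was 0 without null fat replicate 1 or hHKDC1 OE fat replicate 1, 2 without null fat replicate 3 and 12 without hHKDC1 OE fat replicate 2, and 16 when libraries were scaled by total counts alone. The log2 fold change was above 0 for 54 of 79 members, with a median of 0.12 against -0.05 for all genes, and this median lay between 0.05 (without null fat replicate 1) and 0.22 (without hHKDC1 OE fat replicate 2) when 1 library was left out. Scaled by total counts alone, 75 were above 0 with a median of 0.28, on a scale where that of all genes was 0.11. Without the libraries described as knockouts, which leaves 1 hHKDC1 OE library that is assumed to vary like the null ones, 0 members and 5.58% of all genes passed, 63 members were above 0 and the median was 0.23.

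By complex the medians in fat were 0.12 for complex I (27 of 36 above 0), -0.03 for complex II (1 of 4), 0.28 for complex III (5 of 8), 0.27 for complex IV (12 of 14) and 0.07 for complex V (9 of 17). The 18 core subunits had a median of -0.03 with 8 above 0, and the 61 other members one of 0.18 with 46 above 0. The core genes were also longer, with a median annotated length of 2162 bases against 1251 for the others. The part of length in this contrast was not tested. The highest and lowest of each complex were Ndufa1 (log2 fold change 0.70) and Ndufs1 (-0.23), Sdhd (0.10) and Sdhc (-0.04), Uqcrh (0.59) and Uqcrc2 (-0.16), Cox7a2l (0.67) and Cox6a2 (-1.75), and Atp5k (0.68) and Atp5g1 (-0.19). Of these extremes, Cox6a2 and Atp5k had SEs of 1.26 and 0.71, as large as their fold changes or nearly so. Without the libraries described as knockouts the medians were 0.22, 0.10, 0.36, 0.28 and 0.18 for complexes I to V. They were 0.14 for the core subunits and 0.25 for the other members. The sign of the fold change differed from that with all libraries in 13 of 79 members. Ndufa1 and Ndufs1 then stood at 0.95 and -0.15, Sdhd and Sdhc at 0.35 and -0.04, and Uqcrh and Uqcrc2 at 0.76 and -0.045. Cox7a2l and Cox6a2 stood at 0.75 and -0.80, and Atp5k and Atp5g1 at 1.17 and 0.02.

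**Figure D3:**
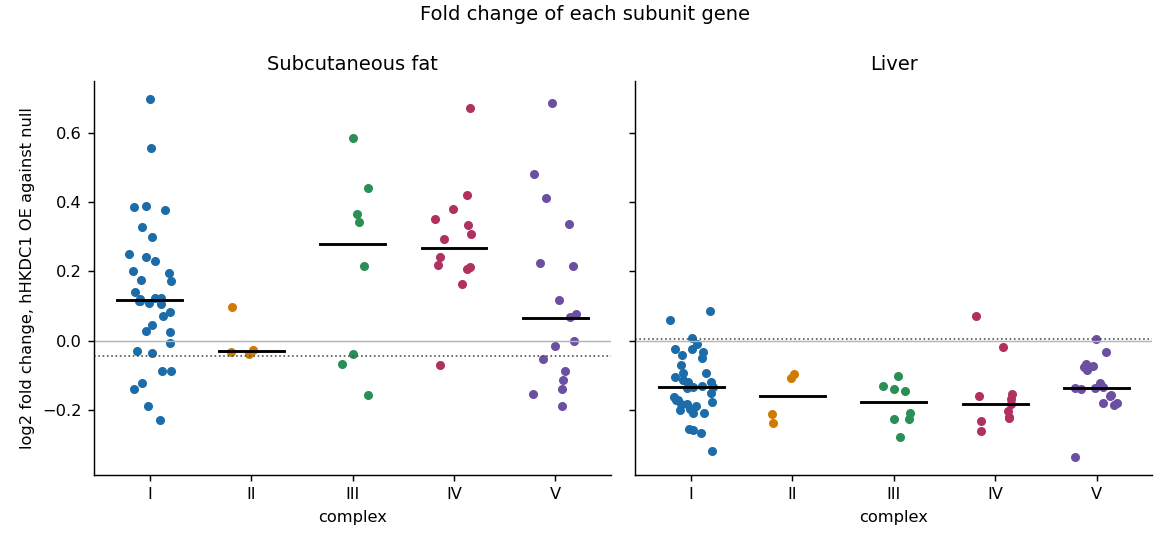
Log2 fold change of hHKDC1 OE against null for each tested member (points) in fat and liver, by complex, with the median of each complex (black bar), the median of all tested genes (dotted line) and 0 (grey line). Cox6a2 in fat, at -1.75, lies outside the axis. The liver medians of the 5 complexes lie between -0.18 and -0.13, and those in fat between -0.03 and 0.28.

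The 6 members with an unadjusted p under 0.05 in fat were 4 accessory subunits of complex I, the complex III subunit gene Uqcrh and Cox7a2l. Ndufa1, a small membrane-arm subunit encoded on the X chromosome, measured 23.8, 41.2 and 29.5 CPM in null fat and 61.3, 48.4 and 43.4 CPM in hHKDC1 OE fat. Every hHKDC1 OE library was above every null library, and the log2 fold change was 0.70 (SE 0.24, edgeR adjusted p = 0.215). Ndufa8 measured 69.8, 71.0 and 72.1 CPM in null fat and 86.4, 85.1 and 90.2 CPM in hHKDC1 OE fat. It had the smallest spread between replicates of any detected member, a pooled SD of 0.08 on the log2 scale, and its log2 fold change was 0.30 (SE 0.12, edgeR adjusted p = 0.254). Ndufb3 and Ndufs6, of the membrane arm and of the electron input module, differed by 0.38 (SE 0.15, edgeR adjusted p = 0.247) and 0.56 (SE 0.18, edgeR adjusted p = 0.190) on the log2 scale, and in both the groups did not overlap.

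Uqcrh, the hinge protein between cytochrome c1 and cytochrome c, measured 89.2, 117 and 94.3 CPM in null fat and 171, 111 and 169 CPM in hHKDC1 OE fat. Replicate 2 of hHKDC1 OE lay within the null range, and the log2 fold change was 0.59 (SE 0.21, edgeR adjusted p = 0.231). Cox7a2l, known as a factor that joins complexes III and IV into supercomplexes, measured 92.6, 87.2 and 87.8 CPM in null fat and 151, 93.5 and 181 CPM in hHKDC1 OE fat. Replicate 2 was again the lowest of its group, just above the null range, and the log2 fold change was 0.67 (SE 0.24, edgeR adjusted p = 0.228). Without hHKDC1 OE replicate 2 these 2 genes passed, with log2 fold changes of 0.75 for Uqcrh (adjusted p = 0.0208 by edgeR) and 0.89 for Cox7a2l (adjusted p = 0.00729), which is 2.53% of the members, while 3251 of 17190 genes (18.9%) passed in all. The libraries in which they were high, replicates 1 and 3, were those with 1135 and 851 CPM of B cell markers, against 66.9 CPM in replicate 2. T cell markers (451 and 477 against 34.9 CPM), brown and beige adipocyte markers (444 and 290 against 178 CPM) and Ucp1 (72.3 and 20.7 against 4.44 CPM) were likewise higher in replicates 1 and 3 than in replicate 2. The part of these cells in the 2 genes was not tested. None of the 6 genes passed in edgeR without the libraries described as knockouts, with log2 fold changes of 0.95 for Ndufa1, 0.28 for Ndufa8, 0.40 for Ndufb3, 0.77 for Ndufs6, 0.76 for Uqcrh and 0.75 for Cox7a2l, of which Cox7a2l had the smallest adjusted p (0.0602).

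**Figure D4:**
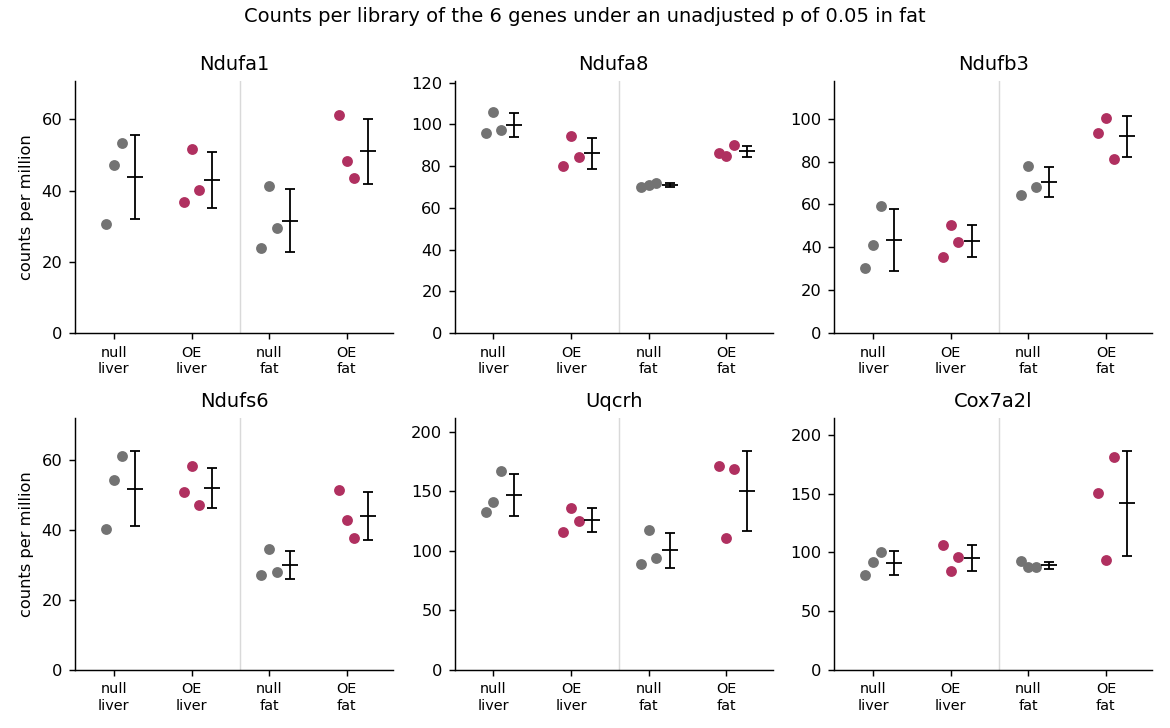
CPM of the 6 members with an unadjusted p under 0.05 in fat, 1 point per library, with the mean and SD of each group of 3 beside it (vertical axes from 0). CPM were scaled within each tissue, so the left and right sides of a panel are not on 1 scale. The hHKDC1 OE fat libraries lie above the null fat libraries in 5 of the 6 panels, and in the panel of Uqcrh 1 of them lies among the null libraries.

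In liver, where the transgene is expressed, the question was whether the subunit genes changed in the transduced cells. None passed. In the quasi-likelihood test of edgeR, adjusted over 13351 genes, 0 of 76 tested members and 0.0% of all genes had an adjusted p under 0.05, and DESeq2 called 0 members and 91 genes. With p unadjusted, 0 members were under 0.05 against 6.94% of all genes, but 4 were without hHKDC1 OE liver replicate 2, 2 without null liver replicate 1 and 2 with limma on FPKM. The log2 fold change was nevertheless below 0 for 71 of 76 members, with a median of -0.14 against 0.01 for all genes. The members' median in single liver libraries had an SD of 0.08 between replicates. Beside it, the macrophage markers had a median of 0.81 in liver with 7 of 8 above 0 and 5 under an unadjusted p of 0.05 in edgeR, and the endothelial markers one of -0.80 with 0 of 5 above 0 and 4 under 0.05, none of them past the adjusted threshold. The hepatocyte markers had a median of -0.09 with 5 of 10 above 0, but their sum was lower in every hHKDC1 OE liver library (104200, 103800 and 90240 CPM) than in every null one (116200, 121200 and 126100 CPM). Albumin (Alb), the most abundant of them, was likewise lower without overlap, at 75070, 69530 and 68840 CPM in null liver and 50320, 50220 and 37990 CPM in hHKDC1 OE liver. The part of a shift between cell types in the members' values was not tested. In 15 members (19.7%) the groups did not overlap, all 15 lower in hHKDC1 OE, against 12.5% of all genes. Without the libraries described as knockouts 71 members were below 0 and the members' median was -0.15. These were not all the same members, since the sign differed from that with all libraries in 8 of 76. Scaled by total counts alone, 62 were below 0 with a median of -0.08, and leaving out 1 library at a time gave medians of -0.21 (without hHKDC1 OE liver replicate 2) to -0.09 (without hHKDC1 OE liver replicate 3).

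The liver values were small and alike across the complexes, with medians of -0.13 in complex I, -0.16 in complex II, -0.18 in complex III, -0.18 in complex IV and -0.14 in complex V. All 18 core subunits were below 0, with a median of -0.14. The lowest of complex I was Ndufc2, an accessory subunit of the membrane arm, which measured 37.2, 41.0 and 47.5 CPM in null liver and 31.7, 36.0 and 33.1 CPM in hHKDC1 OE liver. The groups did not overlap, and the log2 fold change was -0.32 (SE 0.14, edgeR adjusted p = 0.718). Cox5a, which helps form the matrix side of complex IV, measured 121, 126 and 126 CPM in null liver and 105, 109 and 105 CPM in hHKDC1 OE liver. Its log2 fold change was -0.22 (SE 0.13, edgeR adjusted p = 0.795), with no overlap. Sdha was 475, 463 and 484 CPM against 364, 419 and 446 CPM, also without overlap, with a log2 fold change of -0.21 (SE 0.15, edgeR adjusted p = 0.836). The members above 0 were Ndufv3 (0.09), Cox7a2l (0.07), Ndufa6 (0.06), Ndufs6 (0.01) and Atp5k (0.00), and the lowest of all was Atp5s at -0.33 (SE 0.36), a gene of 48 to 122 counts per liver library. The medians of complexes I to V without the libraries described as knockouts were -0.15, -0.23, -0.18, -0.24 and -0.12, and 2 of 18 core subunits were above 0. The log2 fold changes of Ndufc2, Cox5a, Sdha and Atp5s were then -0.40, -0.24, -0.38 and -0.96. Of the members above 0 with all libraries, only Cox7a2l (0.23) stayed there. Ndufv3 stood at -0.08, Ndufa6 at -0.04, Ndufs6 at -0.03 and Atp5k at -0.72. Those that moved above 0 were Ndufs8 (0.27), Ndufb7 (0.10), Atp5g1 (0.095) and Ndufv1 (0.05).

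The difference between the treatment effects in the 2 tissues was tested over the 12 libraries. No member passed the edgeR quasi-likelihood test, adjusted over 17070 genes (0 of 79, 0.0% of all genes), and DESeq2 called 0 members and 497 genes. With p unadjusted, 9 members (11.4%) were under 0.05 against 12.7% of all genes. That count was 1 without null fat replicate 1, 2 without null fat replicate 3 or hHKDC1 OE fat replicate 1, and 14 without hHKDC1 OE liver replicate 2. It was 3 to 5 without null fat replicate 2, hHKDC1 OE fat replicate 3, null liver replicate 2 or 3, or hHKDC1 OE liver replicate 1 or 3. The effect in fat minus that in liver was above 0 for 76 of 79 members, with a median of 0.39 against 0.03 for all genes. With 1 library left out the count above 0 ran from 55 (without null fat replicate 3) to 77 (without null liver replicate 2). The members' median was not stable: it lay between 0.13 and 0.29 when any 1 of the 6 fat libraries was left out, while the median of all genes then moved to between -0.17 and -0.10. Relative to the median of all genes it was 0.35 with all libraries and 0.25 to 0.42 without 1 fat library. The smallest p belonged to Ndufa8, with a difference of 0.59 (SE 0.17, edgeR adjusted p = 0.175), and Uqcrh had one of 0.89 (SE 0.27, adjusted p = 0.199). Without hHKDC1 OE fat replicate 2, Uqcrh passed with a difference of 0.86 (edgeR adjusted p = 0.0393), which is 1.27% of members where 6.77% of all genes passed. Without the libraries described as knockouts 0 members and 0.669% of all genes passed, and the members' median was 0.46 while that of all genes moved to 0.14. Ndufa8 then had a difference of 0.67 (SE 0.25, edgeR adjusted p = 0.312) and Uqcrh one of 1.18 (SE 0.34, edgeR adjusted p = 0.191).

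Genes that work beside the members were counted in the same fits, and none of them passed in either treatment comparison in edgeR. In fat the 47 tested assembly factors had a median log2 fold change of -0.03, from Taco1 (-0.42), a translational activator of mt-Co1, to Coa4 (0.92, SE 0.31, adjusted p = 0.208). The 16 genes of the TCA cycle and pyruvate dehydrogenase had a median of -0.13, from Fh1 (-0.32) to Pdhb (0.28). The 14 genes of electron carriers and coenzyme Q synthesis had one of -0.06, from Coq8a (-0.86) to Etfb (0.37), and the 12 regulators of mitochondrial biogenesis one of -0.04, from Tfb2m (-0.27) to Nrf1 (0.51). The 12 tested subunits encoded in mitochondrial DNA had a median of -0.26, from mt-Nd5 (-0.51) to mt-Nd3 (0.68), and the 13 of them summed to 36870 to 73780 CPM across fat libraries. The 77 tested mitochondrial ribosomal proteins had one of 0.09, from Mrps34 (-0.48) to Mrpl52 (0.63), with 57 above 0.

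In liver the same lists had medians of -0.05 for assembly factors (Cox16 -0.51 to Coa4 0.60), -0.16 for the TCA cycle (highest Fh1, 0.05), -0.15 for carriers and coenzyme Q (Etfb -0.32 to Coq6 0.23) and -0.01 for regulators (Ppargc1a -0.35 to Ppargc1b 0.66). The 12 tested mitochondrially encoded subunits had a median of -0.21 with 0 above 0, from mt-Nd4l (-0.66) to mt-Co2 (-0.03), and the mitochondrial ribosomal proteins one of -0.11, from Mrps18c (-0.54) to Mrps36 (0.37). Without the libraries described as knockouts, 0 genes of these lists passed in fat or liver except 1 mitochondrial ribosomal protein in fat. The medians then ran in fat from -0.26 for the mitochondrially encoded subunits to 0.18 for the regulators, whose median had been below 0, and in liver from -0.30 for carriers and coenzyme Q to -0.03 for the regulators. Between the null tissues, where 30.5% of all genes were lower in fat and 33.8% higher, 23 of 47 assembly factors (48.9%) were lower and 1, Atpaf2 (0.90), was higher, with Coa6 the lowest (-2.18). The TCA cycle was mixed, with 6 of 16 lower (37.5%) and 4 higher (25.0%), shares near those of all genes, from Suclg2 (-2.63) to Idh3a (2.24). Of the 14 carrier genes 8 were lower (57.1%) and 0 higher, from Etfdh (-1.84) to Coq2 (0.01), and of the 12 regulators 5 were lower (41.7%) and 0 higher, from Tfam (-1.55), the packaging factor of mitochondrial DNA, to Gabpb1 (0.37). Of 4 related genes outside the rule, Cox8b, Cox7a1 and Ndufa4l2 were higher in fat and Ndufab1 (-0.45) was lower. Of the 12 tested mitochondrially encoded subunits 5 were lower (41.7%), and mt-Nd3 was the lowest (-2.09), while 62 of 77 mitochondrial ribosomal proteins (80.5%) were lower and 1, Mrps6 (2.13), was higher.

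In fat the fold change of a member followed its length. Members were put into 3 classes of annotated gene length, cut at 1147 and 2101 bases. The short class (27 members) had a median of 0.29 on the log2 scale, with 22 above 0, the middle class (26 members) 0.19 with 21 above 0, and the long class (26 members) -0.03 with 11 above 0. Spearman's rho between fold change and length was -0.52 across the 79 members in fat and -0.01 across the 76 in liver, as a description of genes measured in the same libraries. All tested protein-coding genes in the same length classes had medians of 0.18, 0.06 and -0.07 in fat. In liver the 3 classes of members had medians of -0.17, -0.14 and -0.15. For the effect in fat minus that in liver they had medians of 0.53, 0.43 and 0.205, with a rho of -0.51 across the 79 members. All tested protein-coding genes in the same classes had medians of 0.34, 0.165 and 0.02 for that difference. The classes without the libraries described as knockouts stood at 0.31, 0.29 and 0.09 in fat and at -0.27, -0.13 and -0.12 in liver.

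The order of the classes changed with the library and not with the group alone. Against the mean of the null libraries, the short and the long class stood at -0.17 and 0.06 in null fat replicate 1, 0.20 and 0.18 in replicate 2, and -0.06 and -0.20 in replicate 3. In hHKDC1 OE fat they stood at 0.35 and 0.12, 0.12 and -0.21, and 0.26 and 0.07. In liver they stood at -0.12 and 0.05 in null replicate 1 and at 0.15 and 0.02 in null replicate 3. Cytosolic ribosomal protein genes, which are short as well, stood at 1.46, 0.30 and 1.47 in hHKDC1 OE fat replicates 1 to 3 and between -0.05 and 0.12 in null fat. Their summed level was 35790, 15960 and 37460 CPM against 10910 to 13180 CPM, and 82 of 83 tested had a log2 fold change above 0, with 0 past the threshold in edgeR, and 68 past it without the libraries described as knockouts. The part of length, of lymphoid cells and of brown adipocytes in the fat values of the members was not tested.

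**Figure D5:**
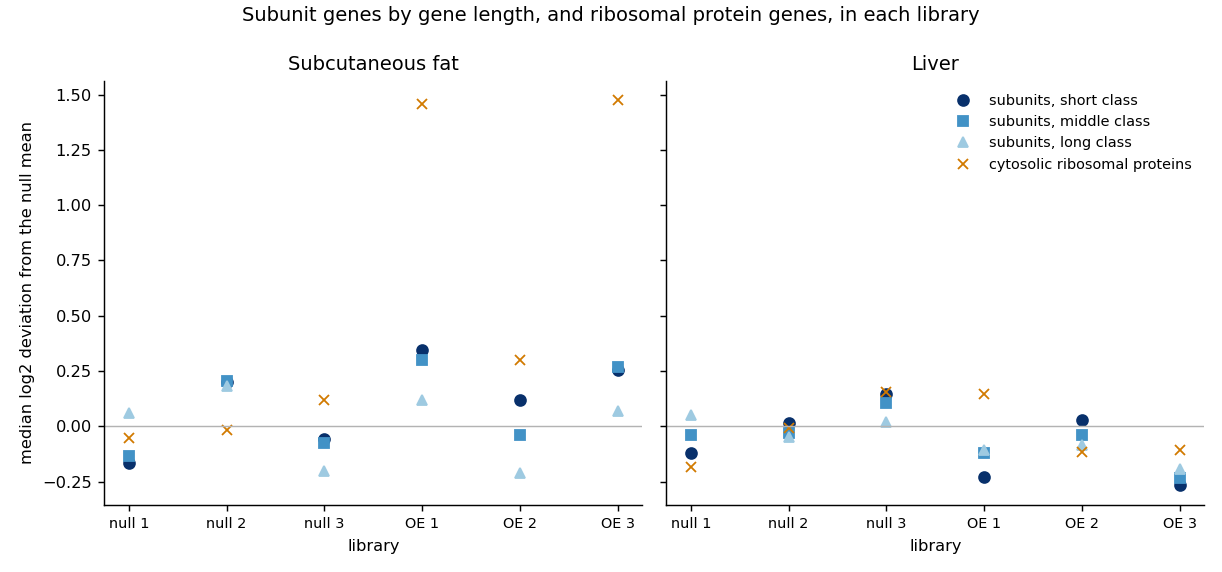
Median over each length class of members, and over cytosolic ribosomal protein genes, of log2 CPM minus the gene's mean in the null libraries of the tissue (vertical), for each library of fat and liver (horizontal). Members stay between -0.27 and 0.35 in every library, whereas the ribosomal protein genes reach 1.46 and 1.47 in hHKDC1 OE fat replicates 1 and 3.

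The spread between replicates differed widely among members. Cox6a2 had a pooled SD of 1.74 on the log2 scale, and Atp5k, a small subunit of the membrane part of complex V with 616 annotated bases, one of 1.01. Atp5k measured 22.5, 21.9 and 48.6 CPM in null liver, 18.7, 51.2 and 23.3 CPM in hHKDC1 OE liver, 10.9, 38.3 and 29.7 CPM in null fat and 59.3, 57.9 and 9.26 CPM in hHKDC1 OE fat. Within each tissue the 2 groups overlapped over most of their range. Ndufa12, Uqcr11 and Cox5b came next, with pooled SDs of 0.54, 0.45 and 0.43, and Cox5b stood at 79.7, 112 and 155 CPM in null liver and 93.3, 155 and 94.4 CPM in hHKDC1 OE liver. At the steady end, after Ndufa8, stood Ndufv1, the NADH-binding subunit (pooled SD 0.09), Atp5b (0.11) and Sdhc (0.11).

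Some members have neighbours on the genome that could share their fragments, since strand was not kept. In the annotation 29 of 82 members had exon bases in common with another gene, and for 4 this was at least 20% of their exon bases. These were both Atp5o genes, Ndufb6 (39.0%, with Smim27) and Ndufa13 (30.0%, with Tssk6), whose values are less certain. Pseudogenes named after Uqcrh, Atp5c1, Atp5k and Atp5l held at most 19 counts in any library. Copies under other names were not searched, so the fragments that members share with copies were not measured.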

How the data were processed

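Liver and subcutaneous fat of male mice were sequenced as paired-end, non-strand-specific libraries, 3 for each tissue and vector. Mapping was with STAR 2.5 and counting with HTSeq 0.6.1, per the labels, and the deposited whole-number counts are not normalized. A human reference is stated in the methods, but the identifiers are mouse Ensembl genes with GRCm38 positions. The authors also deposited FPKM, which here came within 1% of counts per length and DESeq2 size factor over the 12 libraries in 100% of 252371 values above 0, so that FPKM were scaled over both tissues together. The authors' own tables of fold changes and p-values were not used.

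From the counts, each comparison was fitted with edgeR 4.0.16 (TMM, filterByExpr, glmQLFit and glmQLFTest, Benjamini-Hochberg adjustment over all genes tested, threshold 0.05), with no term for the replicate number. CPM were scaled by TMM within a tissue, except marker sums, which were scaled by total counts. Where a log2 CPM was taken, 0.5 was added. Alternatives were DESeq2 1.42.0, limma 3.58.1 on log2(FPKM + 1) and log2(FPKM + 0.1), other normalizations and filters, the replicate block, and each library left out. The edgeR fits with and without the replicate block, DESeq2 and both limma fits were first run on simulated counts. The other alternatives were not. Genes named were the core subunits, the isoform pairs, the highest and lowest of each complex and comparison, and the largest calls. Genes chosen after their values were seen are Ndufa12, Uqcr11, Cox5b, Ndufv1, Sdhc and Atp5k for their replicate spread, the 6 genes under an unadjusted p of 0.05 in fat, Ndufc2, Cox5a and Sdha in liver, and the genes with printed sequences. The values of some single genes are not reported here. Members and lists were chosen with earlier results of these data known. Nothing in the sources says whether the replicates were handled in batches. The number of counts sets the precision: a count of 0 allows up to 3, and intervals cover counting error only.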

Additional observations from a re-analysis of the deposited data

How the results depend on the processing

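The members' median kept its sign in each comparison under every alternative run. In fat, 0 members were called higher and 0 lower under each alternative except 3: at an unadjusted p under 0.05 there were 6 higher, with each library left out in turn 0 to 2 higher, and without null fat replicate 3 and hHKDC1 OE fat replicate 2 together, a choice made after seeing the data, 2 higher (Uqcrh and Cox7a2l) and 1 lower (Cox6a2, log2 fold change -1.79), which is 3.80% of members where 20.2% of all genes were called. In liver no count of calls changed. For the difference between tissues, 9 members were higher at an unadjusted p under 0.05, 0 to 1 with each library left out (Uqcrh without hHKDC1 OE fat replicate 2, where 6.77% of all genes passed), and the median was 0.26 with limma on log2(FPKM + 1) and 0.13 to 0.44 with each library left out. Between null fat and null liver, library size alone gave 27 lower (15.0% of all genes were), 7 higher (59.1% of all genes) and a median of -0.24, and it turned log2 fold changes of called members to above 0, including those of Atp5c1 (0.16), Ndufs7 (0.04), Ndufv1 (0.02) and Sdha (0.17), since that scale moves all genes up. Upper-quartile normalization gave a median of -0.96, and at least 10 counts in every library a median of -0.99 and 0 higher, since Cox6a2 and Cox4i2 were then not tested.

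With the replicate number as a block, 0 members were called in fat (1.03% of all genes), 0 in liver (0.127%) and 0 for the difference (0.0351%), and 70 lower (31.2% of all genes) and 2 higher (33.9%) between the null tissues, with medians of 0.14, -0.15, 0.37 and -1.13. The numbers were not taken as a pairing: correlations of same-numbered libraries were 0.22, 0.18 and 0.09 in liver, 0.01, -0.12 and 0.03 in fat and 0.24, 0.03 and 0.14 between the null tissues. In liver every null replicate correlated best with its own number, which is a hint from the data only, and in fat none did.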
